A study of Mus musculus with 6 samples.

Results

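The 8 transporters described here carry glucose, fructose or related sugars across cell membranes. They were chosen by gene symbol, namely Slc2a1, Slc2a2, Slc2a3, Slc2a4, Slc2a5, Slc2a9, Slc5a1 and Slc5a2. They are 8 of the 18437 protein-coding mRNAs listed in at least 1 library, and 6 of them were listed in all 6 libraries. The measurement was Ribo-seq, in which the mRNA fragments covered by translating ribosomes are sequenced. It was made on WT C57BL/6J mice, 4 weeks old and without treatment, with 1 library for each of the tissues brain, heart, lung, kidney, colon and small intestine. The labels give neither the sex nor the number of animals behind a library. The question put to these data was which hexose transporter had the highest ribosome density in each tissue at this age. The density is given as RPKM, the reads on a coding sequence (CDS) scaled by its length and by the sum of reads over CDSs, so that mRNAs of different length can be compared within a library.

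Glucose is polar and crosses membranes on carrier proteins. Members of the SLC2 family, the GLUT proteins, are facilitative and let hexoses run down their gradient, whereas the SLC5 members SGLT1 and SGLT2 pull glucose into the cell together with sodium. In an absorbing epithelium, a sodium-coupled carrier in the apical membrane takes glucose up and a facilitative carrier in the basolateral membrane passes it on to the blood. Slc2a1 encodes GLUT1, a carrier found in most cells and abundant in the blood-brain barrier. Slc2a3 encodes GLUT3, the neuronal carrier, and Slc2a4 encodes GLUT4, which insulin moves to the surface of muscle and fat cells. Slc2a2 encodes GLUT2 of liver, pancreatic beta cells, small intestine and kidney. Slc2a5 encodes the fructose carrier GLUT5, and Slc2a9 encodes GLUT9, which transports urate. Slc5a1 encodes SGLT1 of the small intestine and the late proximal tubule of the kidney, and Slc5a2 encodes SGLT2 of the early proximal tubule.

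The tissue labels were set against 6 marker genes per tissue. The 6 heart markers and the 6 lung markers were each highest in the library with that label. The 6 small intestine markers were highest in the library labelled brain, the 6 kidney markers under colon, 5 of the 6 colon markers under kidney and the 6 brain markers under small intestine. The exception among the colon markers was Ang4, which had 239.9 RPKM under brain and 207 RPKM under kidney. Of the 5 others, Fcgbp and Zg16 were only 1.16-fold and 1.29-fold higher under kidney than under brain. Thus 4 of the 6 labels went against their markers. Libraries are named by their label throughout, so that a level under brain is one in the library labelled brain, whatever tissue it holds. RPKM times CDS length gave whole reads for 100% of values, with totals between 4504853 and 10635031 reads per library. A single library per label leaves no replicate error, so no p-value is given between tissues. The 95% intervals below are exact Poisson intervals of the reads, or exact conditional binomial (Clopper-Pearson) intervals of a ratio of reads. They cover counting error only and say nothing about differences between animals. The reads carry no molecular identifiers, so copies made by PCR count as separate reads and the intervals can be too narrow. An mRNA not listed in a library was taken as 0 reads, and the RPKM of 3 reads was used as its upper limit.

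The facilitative members differ in sequence where they meet the sugar, and the stretch below, given for 5 of them, was chosen because it separates them. Each line gives 39 bases of the CDS (GRCm39, 5′ to 3′ on the coding strand), with the 3 codons aligned to Gln-Leu-Ser of transmembrane helix 7 in capitals and 5 codons on each side. This short motif is known for its part in the choice between glucose and fructose.
Slc2a3: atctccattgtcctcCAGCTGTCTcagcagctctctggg
Slc2a4: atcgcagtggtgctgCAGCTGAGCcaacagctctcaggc
Slc2a2: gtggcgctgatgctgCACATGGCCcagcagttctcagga
Slc2a5: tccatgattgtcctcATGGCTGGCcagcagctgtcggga
Slc2a9: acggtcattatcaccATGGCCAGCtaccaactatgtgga
The capitals encode Gln-Leu-Ser in 2 of the 5, namely Slc2a3 and Slc2a4, and other residues in Slc2a2, Slc2a5 and Slc2a9. Over the whole proteins, translated from the same CDSs, identity within the family ranged from 32.6% between Slc2a2 and Slc2a9 to 66.3% between Slc2a1 and Slc2a4. Slc5a1 and Slc5a2 were 61.8% identical. The share of 28-base windows found in another listed mRNA was 0.138% for Slc2a3 and 0.133% for Slc2a4, from 2 windows each, and 0 for the other six.

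A different transporter led in each library, apart from Slc5a1, which led under the labels brain and kidney. In the library labelled brain, Slc5a1 held 89.0% (95% interval 88.5 to 89.6) of the summed RPKM of the 8 transporters, 25.6-fold (23.2 to 28.3) over Slc2a5 in second place. In the library labelled heart, Slc2a4 held 89.8% (88.1 to 91.3), 14.5-fold (11.6 to 18.3) over Slc2a1. In these libraries a single transporter took most of the density.

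The other leaders stood closer to their runners-up. Slc2a3 held 60.7% (58.4 to 63.0) in the library labelled small intestine, 3.16-fold (2.78 to 3.59) over Slc2a1. Slc5a1 held 61.5% (59.6 to 63.4) under kidney, 2.21-fold (2.02 to 2.42) over Slc2a1. Slc2a1 itself led under lung with 53.8% (50.1 to 57.3), 2.06-fold (1.75 to 2.43) over Slc5a1. In the library labelled colon the density was spread most evenly, with Slc5a2 at 42.7% (41.2 to 44.2), 2.20-fold (2.01 to 2.41) over Slc2a5. Each of these 6 ratios lay above 1 beyond counting error.

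The summed density also differed between libraries. The 8 transporters together had 737 RPKM in the library labelled brain, 489.9 under colon, 210.5 under kidney, 145 under small intestine, 111 under heart and 61.0 under lung. The sodium-coupled pair, Slc5a1 and Slc5a2, supplied 90.3% of this sum under the label brain, 61.6% under kidney and 58.8% under colon. It supplied 26.8% under lung, 12.9% under small intestine and 3.09% under heart. Among the 6 facilitative members alone, Slc2a5 led under brain with 35.7% and under colon with 47.2%. Slc2a4 led under heart with 92.6%, Slc2a1 under kidney with 72.4% and under lung with 73.4%, and Slc2a3 under small intestine with 69.7%.

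**Figure D1:**
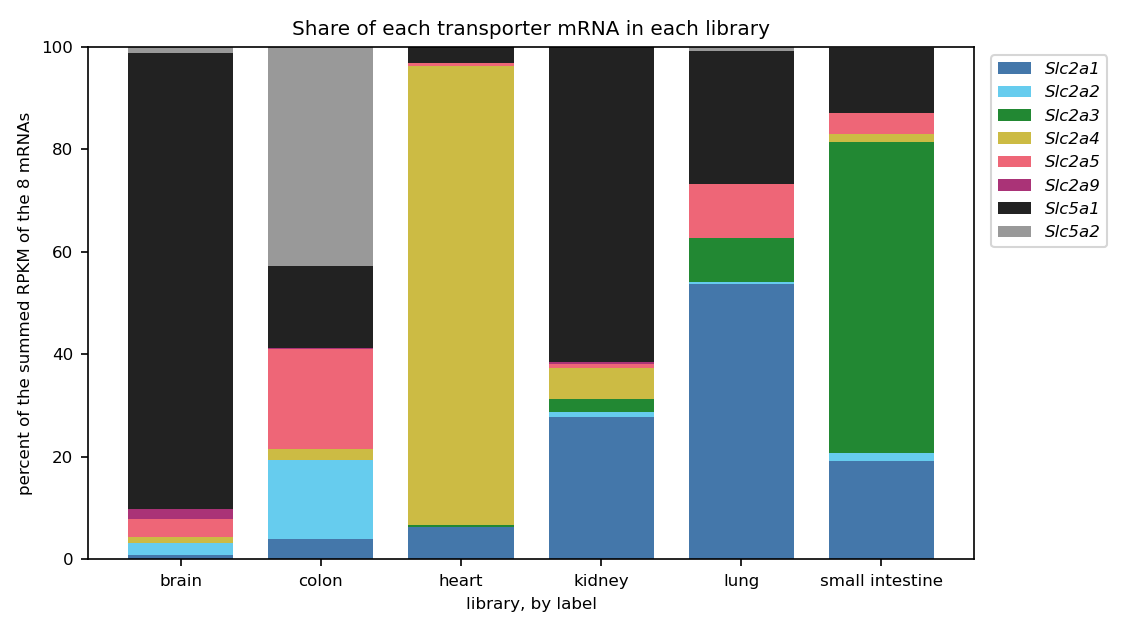
Percent of the summed RPKM of the 8 transporter mRNAs (vertical axis, 0 to 100) held by each mRNA, as stacked bars, in the 6 libraries named by their labels (horizontal axis). Slc5a1 fills 89.0% of the bar labelled brain and Slc2a4 fills 89.8% of that labelled heart, whereas no mRNA exceeds 42.7% of that labelled colon.

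Slc2a1 (GLUT1; ENSMUSG00000028645, chr4:118965908-118996365, plus strand of GRCm39, 10 exons) was the most evenly distributed of the 8. It had 5.73 RPKM in the library labelled brain, 19.4 under colon, 6.87 under heart, 58.5 under kidney, 32.8 under lung and 27.9 under small intestine, from 90, 129, 83, 655, 374 and 315 reads. The highest library, labelled kidney, was 1.79-fold (1.57 to 2.03) over that labelled lung. The lowest neighbours in the order, labelled heart and brain, did not differ beyond counting error (ratio 1.20, 0.879 to 1.63), and the others did. Lung over small intestine was the closest of these others (ratio 1.174, 1.008 to 1.368). This order holds for scaling by library totals. Median-of-ratios size factors moved lung by -0.42 and small intestine by 0.24 on the log2 scale, which sets small intestine over lung. They moved heart by 0.21 and brain by -0.04, which sets heart further over brain. Endothelial and red cells were followed with markers. The 6 endothelial markers were highest in the library labelled lung, with a summed 2457 RPKM against 70.6 to 506 elsewhere, and so were 4 of the 6 erythroid markers, with 489 RPKM against 1.51 to 122. In the library labelled kidney, where Slc2a1 was highest, the summed levels were 82.8 RPKM for the endothelial and 7.38 RPKM for the erythroid markers, with Hbb-bt and Hba-a1 at 0 reads. The part of these cells in the Slc2a1 level of the library labelled lung was not tested.

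Slc2a3 (GLUT3; ENSMUSG00000003153, chr6:122704768-122778599, minus strand, 10 exons) had 88.1 RPKM (82.7 to 93.7) from 996 reads in the library labelled small intestine. It had 5.44 RPKM from 61 reads under kidney, 5.16 RPKM from 59 reads under lung and 0.331 RPKM from 4 reads under heart. It was not listed in the libraries labelled brain and colon, where 3 reads would give 0.191 and 0.450 RPKM. The top library was 16.2-fold (12.5 to 21.3) over the next, and the kidney- and lung-labelled libraries did not differ beyond counting error (ratio 1.05, 0.725 to 1.53). The library with the high value was the one in which the 6 brain markers were highest, at 33.3 to 2332 RPKM each. In that library Slc2a3 was 3.16-fold over Slc2a1. In the other three libraries that listed both, the order was turned, and Slc2a1 was over Slc2a3 by 20.8-fold (7.82 to 78.1) under heart, 10.8-fold (8.27 to 14.2) under kidney and 6.35-fold (4.82 to 8.51) under lung.

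Slc2a4 (GLUT4; ENSMUSG00000018566, chr11:69831006-69839070, minus strand, 11 exons) had 99.5 RPKM (94.0 to 105) from 1243 reads in the library labelled heart. It had 8.74 RPKM in the library labelled brain, 10.6 under colon, 12.8 under kidney and 2.31 under small intestine, from 142, 73, 148 and 27 reads. In the library labelled lung it had 0.0847 RPKM, from 1 read. The library labelled heart thus stood 7.78-fold (6.56 to 9.29) over that labelled kidney. The kidney-, colon- and brain-labelled libraries formed a middle group, in which neighbours did not differ beyond counting error (ratios 1.20, 0.904 to 1.62, and 1.21, 0.902 to 1.62). This holds for scaling by library totals. Median-of-ratios size factors moved kidney by 0.21 and colon by -0.11 on the log2 scale, which sets kidney further over colon.

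The first 60 bases of the CDS are shown because the insulin-sensitive sorting of GLUT4 depends in part on a short motif near its start, Phe-Gln-Gln-Ile, whose 4 codons (codons 5 to 8) are in capitals. The start of Slc2a1, whose product is not stored in this way, stands beside it.
Slc2a4: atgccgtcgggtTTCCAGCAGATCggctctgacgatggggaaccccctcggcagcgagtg
Slc2a1: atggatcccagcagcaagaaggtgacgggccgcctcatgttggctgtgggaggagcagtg
Skeletal muscle and fat, which also use this carrier, were followed with markers. The 6 skeletal muscle markers summed to 2312 RPKM in the library labelled heart against 9.29 to 44.7 elsewhere. Of these, 3 were highest there, namely Ckm, Acta1 (76.9 RPKM) and Myh1 (8.18 RPKM, 9.45-fold over lung). Myh4, Tnnt3 and Mylpf were highest under lung, at 1.36, 4.28 and 21.4 RPKM. Ckm, the muscle creatine kinase that heart muscle also uses, made up 2225 RPKM of that sum, and Myh4 had 0.0420 RPKM. The 5 adipocyte markers summed to 109 RPKM in the library labelled heart, within the range of 7.47 to 649 over the others, and Lep had 0 reads in the 6 libraries. Adipoq, secreted by fat cells, had 66.7 RPKM in the library labelled lung and 10.9 RPKM under heart. The part of skeletal muscle and fat cells in the Slc2a4 level under heart was not tested.

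Slc2a2 (GLUT2; ENSMUSG00000027690, chr3:28752051-28785508, plus strand, 11 exons) was high under 2 labels. It had 75.7 RPKM (69.4 to 82.4) in the library labelled colon and 17.6 RPKM (15.6 to 19.7) under brain, from 535 and 293 reads, a 4.31-fold difference (3.73 to 4.99). It had 2.17 RPKM under small intestine, 1.76 under kidney, 0.247 under lung and 0.0779 under heart, from 26, 21, 3 and 1 reads. The small intestine- and kidney-labelled libraries did not differ beyond counting error, and neither did those labelled lung and heart. Liver, where GLUT2 is abundant, was followed with 6 hepatocyte markers. They summed to 1235 RPKM in the library labelled colon, 976 under kidney and 1867 under small intestine, of which 1819 came from Ttr, and to 29.2 to 191 in the others. Ttr had 654 RPKM under colon and 223 RPKM under kidney. Each of the other hepatocyte markers was lower under small intestine than under colon and kidney. Cyp2e1, for example, had 3.27 RPKM under small intestine, 87.7 under colon and 51.3 under kidney. The sum under small intestine, almost wholly Ttr, is therefore not comparable with the other 2. In the library labelled kidney the markers stood beside 1.76 RPKM of Slc2a2. The part of liver cells in the Slc2a2 level under colon was not tested.

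Slc2a5 (GLUT5; ENSMUSG00000028976, chr4:150196268-150228931, plus strand, 14 exons) followed the same order at the top, with 95.1 RPKM (87.9 to 103) in the library labelled colon and 25.6 RPKM (23.2 to 28.3) under brain. It had 6.37 RPKM under lung, 5.74 under small intestine, 1.84 under kidney and 0.569 under heart. The reads behind these 6 values, in the same order, were 644, 410, 74, 66, 21 and 7. The top library was 3.71-fold (3.27 to 4.21) over the next. The lung- and small intestine-labelled libraries did not differ beyond counting error (ratio 1.11, 0.785 to 1.57). Fructose also leaves the absorbing cell through GLUT2, and Slc2a5 was over Slc2a2 by 1.46-fold (1.25 to 1.70) under brain and 1.26-fold (1.12 to 1.41) under colon. Under lung the ratio was 25.7-fold (8.48 to 128), against 3 reads of Slc2a2.

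Slc2a9 (GLUT9; ENSMUSG00000005107, chr5:38506616-38660486, minus strand, 12 exons) was read almost wholly in 1 library, that labelled brain, with 14.2 RPKM (12.4 to 16.1) from 243 reads. It had 0.825 RPKM from 6 reads under colon, 0.490 RPKM from 6 reads under kidney and 1 read each under heart (0.0757 RPKM) and small intestine (0.0810 RPKM). It was not listed in the library labelled lung, where 3 reads would give 0.240 RPKM. The fold over the colon-labelled library was 17.2, with a wide interval (7.77 to 47.2) because of the 6 reads in the denominator. Among the libraries below the top no neighbours differed beyond counting error.

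Slc5a1 (SGLT1; ENSMUSG00000011034, chr5:33261563-33320214, plus strand, 15 exons) had the highest density of the 8 in any library, 657 RPKM (646 to 668) from 13933 reads under the label brain. That placed it at rank 177 of the 11520 mRNAs with reads in that library. It had 129 RPKM in the library labelled kidney, 79.1 under colon, 18.5 under small intestine, 15.9 under lung and 3.37 under heart, from 1959, 711, 282, 245 and 55 reads. The top library was 5.07-fold (4.84 to 5.32) over the next. The small intestine- and lung-labelled libraries did not differ beyond counting error (ratio 1.16, 0.977 to 1.39), and the other neighbours did.

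Slc5a2 (SGLT2; ENSMUSG00000030781, chr7:127864829-127871602, plus strand, 14 exons) had 209 RPKM (200 to 219) from 1894 reads in the library labelled colon and 8.94 RPKM (7.71 to 10.3) from 191 reads under brain. The remaining libraries had 1 to 7 reads, with 0.451 RPKM under lung, 0.260 under small intestine, 0.131 under kidney and 0.0608 under heart. The fold of the top library over the next was 23.4 (20.2 to 27.3), the largest point value among the 8, within the interval of Slc2a9. The 4 low libraries could not be ordered at this depth.

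The sodium-coupled pair changed order between the libraries in which it was most abundant. Under brain, Slc5a1 was 73.5-fold (63.7 to 85.2) over Slc5a2. Under colon, the ratio of Slc5a1 to Slc5a2 was 0.378 (0.346 to 0.412), that is, Slc5a2 was the higher. The basolateral partner GLUT2 was set beside them. Slc5a1 was 37.4-fold (33.3 to 42.1) over Slc2a2 under brain and 73.4-fold (47.9 to 119) under kidney. Under colon, Slc5a1 and Slc2a2 did not differ beyond counting error (ratio 1.05, 0.933 to 1.17), and Slc5a2 was 2.76-fold (2.51 to 3.05) over Slc2a2. The library labelled colon was also the one in which the 4 markers of the early proximal tubule were highest, with a summed 3091 RPKM against 21.5 to 590 elsewhere. Of the 4 markers of the late proximal tubule, 3 were highest there, with a summed 439 RPKM against 20.1 to 96.0.

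**Figure D2:**
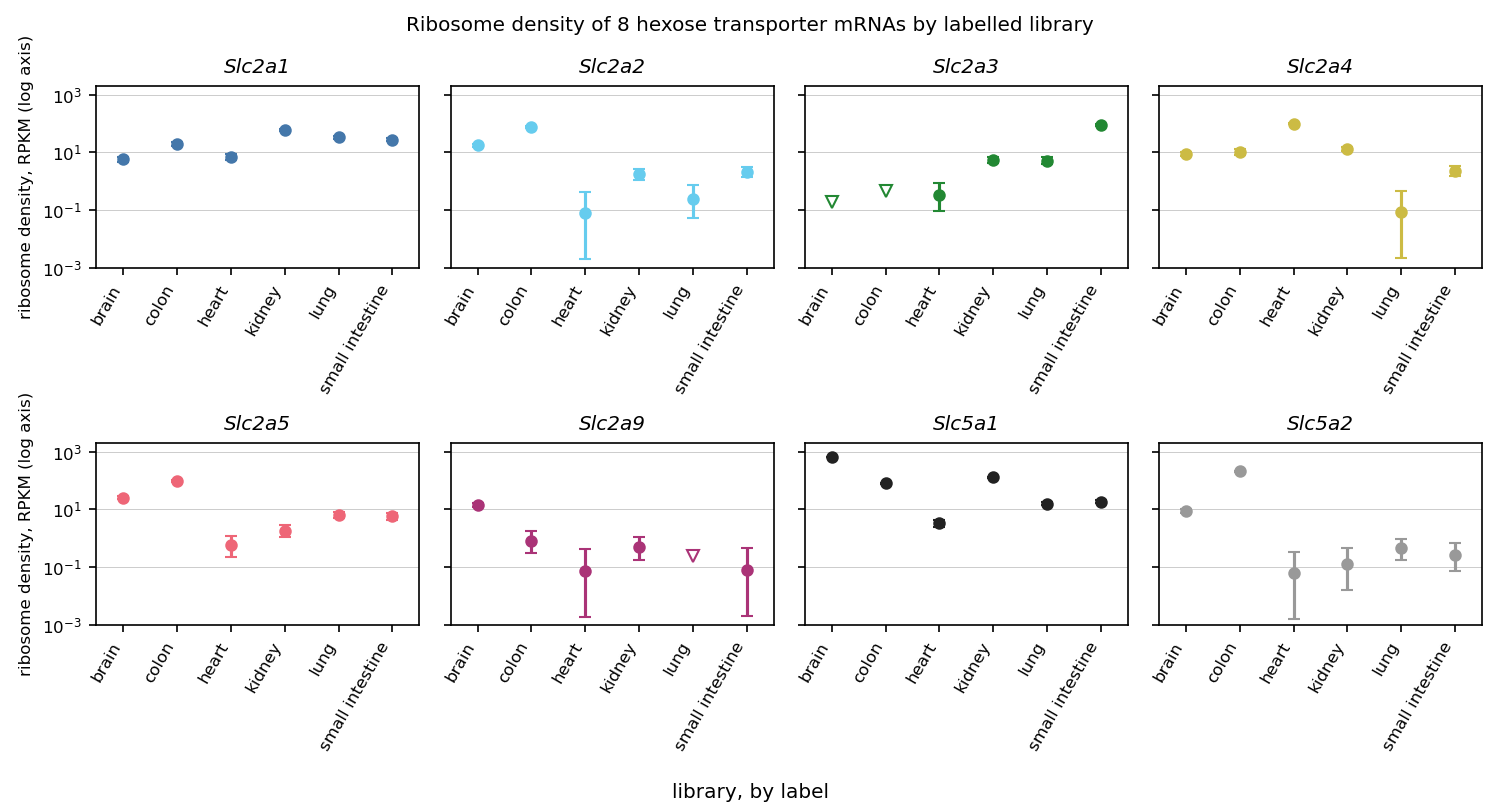
Ribosome density in RPKM (vertical axis, logarithmic) of each of the 8 transporter mRNAs in the 6 libraries named by their labels (horizontal axis). Points are single libraries, bars are exact 95% Poisson intervals of the reads, and open triangles mark the RPKM of 3 reads where the mRNA was not listed. Slc2a1 spans 5.73 to 58.5 RPKM, whereas Slc5a2 spans 0.0608 to 209 RPKM.

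How far each transporter was held by 1 library was counted with a fixed rule, under which an mRNA was called when its highest library had at least 10 reads and at least 4-fold the RPKM of the next, with any library below 3 reads set to 3 reads. By this rule 6 of the 8 transporters were called, against 22.5% of the 15194 mRNAs tested. The median fold of the 8 was 6.43, against 1.84 over the tested mRNAs. The 6 were Slc2a9 and Slc5a1 in the library labelled brain, Slc2a2 and Slc5a2 under colon, Slc2a4 under heart and Slc2a3 under small intestine. The same libraries called 2.24% (brain), 2.85% (colon), 2.39% (heart) and 9.22% (small intestine) of tested mRNAs. No transporter was called in the libraries labelled kidney and lung, which called 1.11% and 4.73%. Slc2a1 and Slc2a5 were not called, at 1.79-fold and 3.71-fold. The transporters share their 6 libraries, and these counts describe the members without a test. With reads thinned to the lowest total, Slc2a2 fell below the limit at 3.66-fold.

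The heart- and lung-labelled libraries were compared on their own, since their markers were highest under their own labels. Slc2a4 was the one member with at least 10 reads that was higher under heart, with 1243 reads against 1 read (ratio without a floor 1174, 210 to 46417). Slc2a1 was 4.77-fold (3.75 to 6.13) higher under lung, Slc2a3 15.6-fold (5.79 to 59.2), Slc2a5 11.2-fold (5.17 to 28.8) and Slc5a1 4.72-fold (3.51 to 6.44). Slc2a2 had 1 read under heart and 3 under lung, Slc5a2 had 1 and 7, and their ratios were not distinguishable from 1 (3.18, 0.255 to 167, and 7.41, 0.952 to 334). Slc2a9 had 1 read under heart and was not listed under lung. At least 4-fold separated the 2 libraries for 5 of the 5 members with enough reads, against 45% of the 12498 mRNAs tested in this pair. With size factors from the median of ratios in place of library totals, the ratio of heart to lung rose from 0.210 to 0.326 for Slc2a1 and from 0.212 to 0.330 for Slc5a1, which keeps the direction and takes both below 4-fold.

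Each transporter was set beside the tissue markers that were highest in the same library. The value used was the level in another library as a percent of the level in the highest. Slc5a1 reached 19.7% of its top level in the library labelled kidney, whereas the 6 small intestine markers stood at 0.435% to 6.15% there, and it exceeded each of these 6 markers in 5 of the 5 other libraries. Slc2a5 did so against the 6 kidney markers in 5 of 5. Under heart this rested on 0.598% from 7 reads, against 0.540% from 1 read of Aqp2. These comparisons use point values, carry no intervals and describe the members without a test. The markers were picked for their tissue and kept only where highest in the same library. An mRNA read more broadly therefore tends to exceed them by construction. In the library labelled brain, Slc2a5 stood at 27.0%, Slc2a2 at 23.2% and Slc5a2 at 4.27% of their level under colon, where the highest kidney marker stood at 4.16%. Slc2a4 stood at 8.79% under brain, 10.7% under colon and 12.8% under kidney, where the highest of the 6 heart markers reached 0.135%, 3.82% and 0.798%. It did not exceed them in the other libraries, with 0.0852% under lung and 2.33% under small intestine against up to 6.26% and 5.55%, which makes 3 of 5.

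Other members exceeded the markers of their top library in fewer of the other libraries. Slc5a2 exceeded the highest kidney marker in 1 of 5 other libraries, narrowly (4.27% against 4.16% under brain). Slc2a3 exceeded the highest brain marker in 0 of 5. For Slc2a3 the kidney- and lung-labelled libraries stood at 6.17% and 5.86% of the top, within the 0 to 13.1% and 0 to 8.79% of the brain markers there. The upper ends came from Mbp, a myelin gene. The other 5 brain markers reached 1.94% and 1.60% at most, so that without Mbp, a choice made after seeing the data, Slc2a3 exceeded the brain markers in 2 of 5. Slc2a9 exceeded the small intestine markers in 2 of 5, from 6 reads under colon and 1 read under heart. Slc2a2 exceeded the kidney markers in 3 of 5. Slc2a1 exceeded the 5 colon markers of the library labelled kidney in 4 of 5, reaching 56.0% of its top under lung, where the highest of these markers reached 0.158%.

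**Figure D3:**
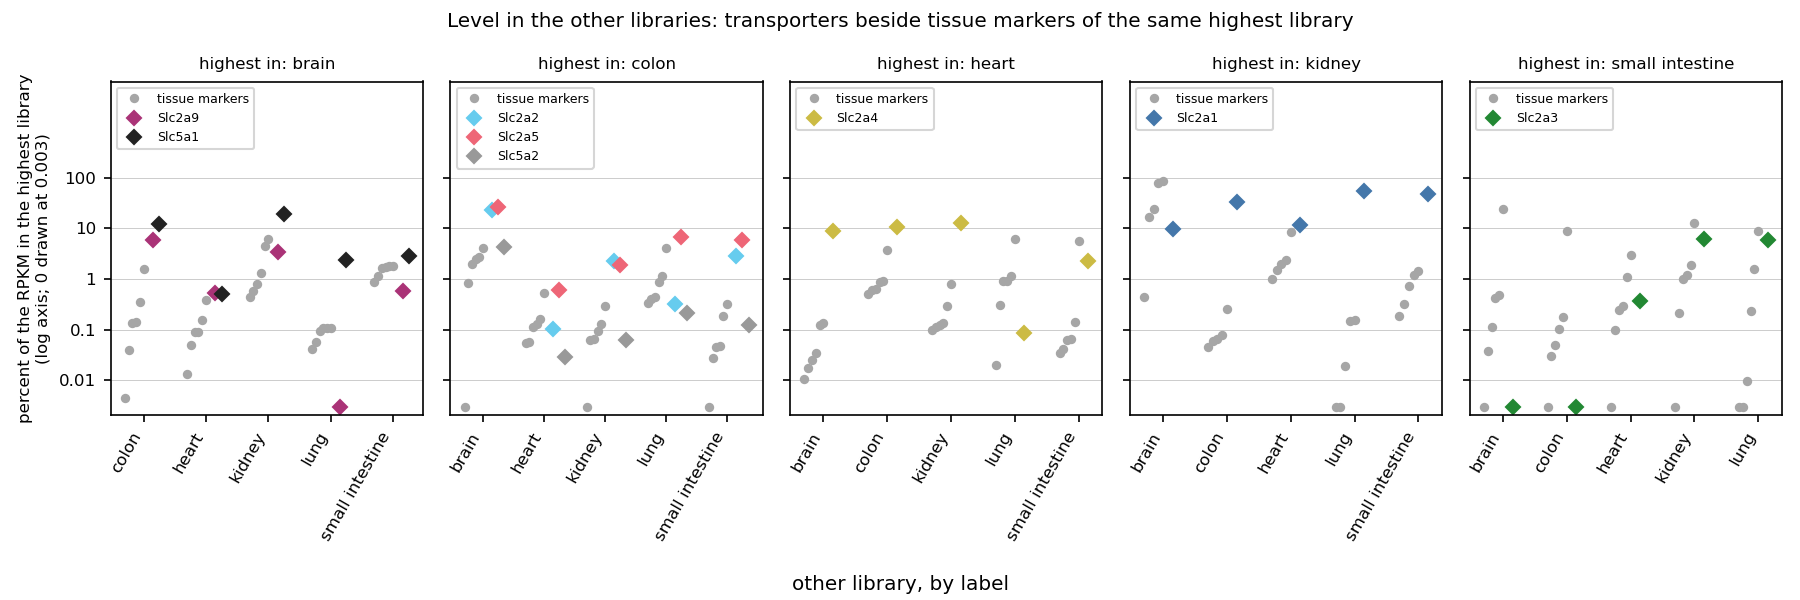
Level in each other library as a percent of the level in the highest library (vertical axis, logarithmic, with 0 drawn at 0.003), one panel for each highest library and the other libraries on the horizontal axis. Diamonds are transporters and grey points are the tissue markers that were highest in the same library. Slc5a1 lies above the 6 grey points in each of 5 libraries, whereas Slc2a3 lies among them.

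The mRNAs with the profile most like each transporter were taken by the Euclidean distance of log2(RPKM + 1) over the 6 libraries, 3 for each. Nearest to Slc5a1 were Pls1, Mgat4a and Ppard (distances 1.37 to 2.03), and nearest to Slc5a2 were Slc6a20b, Hoga1 and Spp2 (0.50 to 0.97). Pls1, which encodes an actin-bundling protein of intestinal microvilli, had 672 RPKM under brain and 74.7 RPKM under kidney. Slc6a20b, an amino acid carrier, had 249 RPKM under colon and 7.80 RPKM under brain, close to the values of Slc5a2.

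Among the facilitative members, Slc2a3 was nearest to Zcchc18, Syt5 and Nmnat2 (0.77 to 1.24). Syt5 is a synaptotagmin of vesicle release, and Nmnat2 maintains axons. Slc2a2 was nearest to Pipox, Kynu and Prlr (0.87 to 1.06), and Slc2a4 to Ccdc69, Glrx5 and Atf1 (1.30 to 2.07). Slc2a9 was nearest to Slc25a48, Cxcl13 and Pou2af1 (0.34 to 0.69), of which Cxcl13 is a chemokine for B cells and Pou2af1 a B cell coactivator. These profiles rest on 1 library with many reads and 5 with few. The 5 leukocyte markers with a value summed to 53.3 RPKM under brain against 26.1 to 1140.2 RPKM elsewhere. Lyz2 and S100a9 made up 727 and 319 RPKM of the sum under lung. Of the 5, 3 were highest under lung, 1 under small intestine and 1, Itgam (1.10 RPKM), under brain. Ptprc had 31.5 RPKM under brain, against 69.6 under lung and 0.286 to 11.4 elsewhere. The list held no gene chosen for B cells, and the part of such cells in the Slc2a9 level was not tested. Slc2a5 was nearest to Lyplal1, Rbbp9 and Aass (1.52 to 2.02), and Slc2a1 to Reep3, Snx13 and Creld2 (1.41 to 1.59). Distances over 6 single libraries are a description, and all mRNAs share the depth and composition of these libraries.

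The other mRNAs of hexose and urate handling were taken from 7 lists with 40 genes, of which 38 had a value and 37 had enough reads to be tested. Under the rule of 4-fold, 10 of the 37 were called (27.0%, against 22.5% of the 15194 mRNAs tested). Of these 10, 8 lay in the libraries labelled brain and colon (21.6% of the 37, against 5.09% of tested mRNAs). The rule does not name this pair of labels, and the lists were chosen with earlier results known. The shares are therefore a description without a test. The median fold of the 37 was 2.03, against 1.84. The 10 include Slc22a12 and Uox of the urate list. Of 6 further sugar carriers of the SLC5 family, 3 were called. Slc5a10, a mannose and fructose carrier, had 94.0 RPKM under colon, and Slc5a4a and Slc5a4b had 24.9 and 23.8 RPKM under brain. This pair is related in sequence, and 2.91% of the 28-base windows of the Slc5a4a mRNA were found in that of Slc5a4b. Slc5a11, a myo-inositol carrier, had 61.9 RPKM under brain and 35.1 RPKM under colon. Of the 5 tested further members of the SLC2 family, 1 was called, Slc2a6, with 25.9 RPKM under small intestine. Slc2a13, the proton-coupled myo-inositol carrier, was highest there too at 52.0 RPKM but missed the limit at 3.92-fold.

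The partner proteins of the sodium-coupled carriers were highest where Slc5a2 was. Pdzk1ip1, which encodes the SGLT2 cofactor MAP17, had 591 RPKM under colon, 5.19-fold over the 114 RPKM under kidney, and 21.5 RPKM under brain. The scaffold Pdzk1 had 513 RPKM under colon and 253 RPKM under brain. Of 5 mRNAs of fructose metabolism, 4 were highest under colon and 1 under brain, and 0 were called. Khk, the ketohexokinase that phosphorylates fructose, had 1389 RPKM under brain and 1669.5 RPKM under colon, against 24.6 to 81.3 RPKM in the others. Tkfc, which phosphorylates the glyceraldehyde made from fructose, had 172 and 197 RPKM under the same labels. These were also the libraries in which the fructose carrier Slc2a5 was highest.

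Of 7 mRNAs of hexose phosphorylation and release, 3 were called. G6pc1, the glucose-6-phosphatase that frees glucose, had 589 RPKM under colon, 16.7-fold over the next, and Slc37a4, which brings its substrate into the endoplasmic reticulum, had 189 RPKM (9.31-fold). Hkdc1, a hexokinase family member, had 141 RPKM under brain (9.74-fold). Hk2, the hexokinase of insulin-sensitive muscle, was highest under heart at 182 RPKM without being called, beside Slc2a4. Of 8 mRNAs of carrier trafficking, 0 were called. Insr, the insulin receptor, was highest under heart at 68.0 RPKM, Sort1, a sorting receptor of GLUT4 vesicles, under small intestine at 408 RPKM, and Txnip, an arrestin that lowers surface GLUT1, under lung at 605 RPKM. Of 4 mRNAs of urate handling, Slc22a12, the renal urate exchanger, was called under colon (130 RPKM, 117-fold) and Uox, the urate oxidase, under kidney (7.83 RPKM, at least 10.7-fold). Of the others, Xdh, which makes urate, was highest under brain at 68.0 RPKM, as Slc2a9 was, and the urate exporter Abcg2 had 193 RPKM under colon and 158 RPKM under brain.

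**Figure D4:**
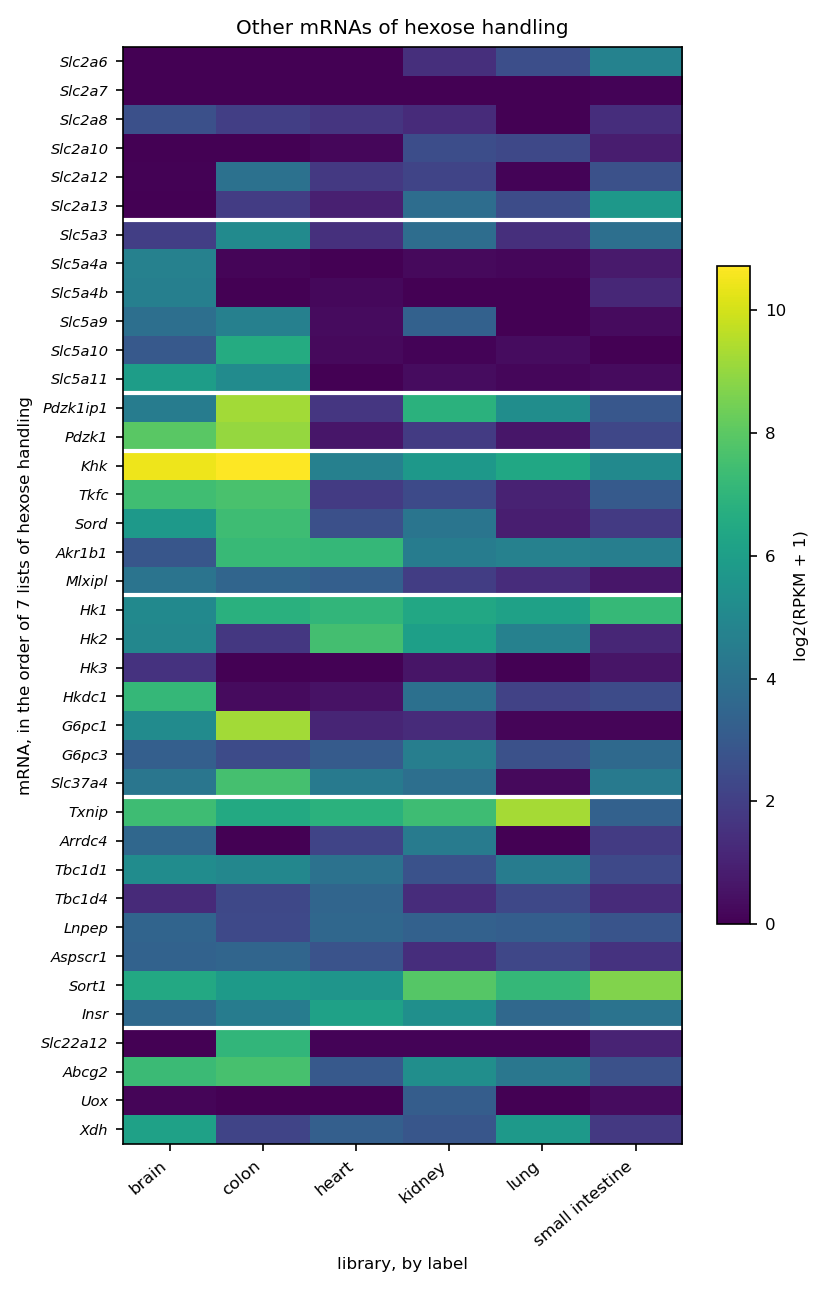
Level as log2(RPKM + 1) (colour scale) of 38 other mRNAs of hexose and urate handling, one per line in the order of 7 lists separated by white lines, in the 6 libraries named by their labels (horizontal axis). The bright fields of Khk lie under the labels brain and colon, and that of G6pc1 under colon.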

How the data were processed

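Ribo-seq had been run on 6 mouse tissues, 1 library per label. The authors deposited RPKM values per CDS, with 1 mRNA per gene of Ensembl GRCm39 release 107. The Methods, written for macrophage libraries and taken to hold here, describe trimming with Cutadapt, removal of reads under 15 nt, alignment with STAR, exclusion of multi-mapped reads and of reads with over 2 mismatches, and P-sites predicted by a random forest. RPKM times CDS length gave whole reads within 0.01 for 100% of values (4504853 to 10635031 reads per library). Symbols, coordinates and CDSs came from GENCODE release M39 (18424 of 18437 mRNAs named).

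The members, gene lists, markers and named mRNAs (the 8 transporters, list members highest in a library or called, and 3 nearest profiles each) were chosen with earlier results of these data known. Ratios carry exact intervals. The rule for calls sets libraries below 3 reads to 3 reads, ratios between heart and lung use the reads as they are, and no p-value was computed. Alternatives covered scaling, thinning, floor, fold, minimum of reads, pseudocount and the sum used for shares. Older symbols were matched through RefSeq synonyms (Akr1b1 as Akr1b3), and 2 listed genes had no value. A few items of the lists and sequences are not reported here. Read recovery and calling were tested on simulated data. The tools were MAFFT 7.526, matplotlib 3.10.9, pandas 2.3.3, scipy 1.17.1 and numpy 2.4.6 under Python 3.11.15.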

Additional observations from a re-analysis of the deposited data

How the results depend on the processing

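The order of libraries and the leading transporter of each library were read from single libraries, so depth limited the low values and animal-to-animal differences could not be seen. No paired analysis was possible because each label has 1 library. Counting reads in place of RPKM, the leader's share was 91.1% under the label brain, 47.4% under colon, 68.2% under kidney, 49% under lung and 58% under small intestine. With the listed SLC2 and SLC5 members in the sum it was 74.9% under brain, 83.7% under heart, 30% under colon, 50.2% under kidney, 42.7% under lung and 35.6% under small intestine. With the Slc2a members alone the facilitative leaders held 35.7%, 92.6%, 47.2%, 72.4%, 73.4% and 69.7% in the same order. Thinning to the lowest total gave 57.7% under lung. The same transporter led with reads, with thinning and with the larger sum.

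With Kri1, an mRNA that took many reads in some libraries, left out of the totals, the fold of the highest library over the next was 2.28 for Slc2a1, 6.13 for Slc2a4 and 4.03 for Slc5a1. With median-of-ratios size factors it was 2.05 for Slc2a1 and 4.24 for Slc5a1, and with TPM it was 5.8 for Slc2a4 and 4.23 for Slc5a1. After thinning it was 3.66 for Slc2a2. At a limit of 10-fold, 3 transporters were called in place of 6. The other settings of limit, minimum and scaling left 6 or 7 called, and leaving out one of the 4 libraries whose labels went against their markers, chosen after seeing the data, left 5 to 7. The ratio of heart to lung under median-of-ratios factors was 0.326 for Slc2a1 and 0.33 for Slc5a1. That scaling moved the median of all mRNAs by -0.42 on the log2 scale in the library labelled lung, and leaving out Kri1 moved it by 0.36 in that labelled kidney. Under the scalings, thinning and floor run, each transporter kept its highest library, and each ratio of heart to lung kept its direction. The next library was not held fixed, and the order of the other libraries was not rerun. For Slc2a1, lung was 1.17-fold over small intestine with library totals. Median-of-ratios factors moved lung by -0.42 and small intestine by 0.24, which places small intestine over lung. The 2.05-fold of Slc2a1 is thus that of kidney over small intestine. The causes were not tested.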
